A study of Mus musculus with 5 samples.

Results

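Retinoid storage and metabolism were followed through 9 of the 31053 genes in the single-cell libraries: Lrat, Rbp4, Stra6, Rdh10, Dhrs3, Aldh1a1, Aldh1a2, Rarb and Rxra. The genes were taken from a list of the pathway's steps, and all 9 were in the files. Stellate cells (HSC) of the liver sinusoid store vitamin A as retinyl esters, and retinol reaches them bound to carrier proteins that hepatocytes secrete. In the cell, retinol can be esterified for storage, or oxidised to retinaldehyde and then to retinoic acid. Retinoic acid acts in the nucleus through RAR and RXR receptors, and HSC lose their retinyl esters when they turn into collagen-producing cells.

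Cells were sorted from male Rosa26mTmG;Col1a1-Cre mice on a C57BL/6J background by the autofluorescence of vitamin A (VitA) and by a green reporter turned on by Cre. The Col1a1 promoter drives this Cre, so Col1a1+ means that the promoter had been active in the cell at some time. Primary mouse HSC and BSC rat myofibroblasts served to place the boundary between VitA+ and VitA-. Mice given diethylnitrosamine (DEN, a liver carcinogen, 10 mg/kg at 2 weeks of age) and then a Western alcohol diet (WAD, liquid, 3.5% ethanol by volume, 5 months from 6 weeks of age) gave a VitA+Col1a1+ library of 10481 cells, a VitA-Col1a1+ library of 2729 cells and a library labelled VitA-Col1a1- of 9870 cells. Mice given saline (at 2 weeks of age) and chow (5 months from 6 weeks of age) gave a VitA+Col1a1+ library of 259 cells and a VitA-Col1a1+ library of 668 cells. The labels do not say how many animals were pooled. In what follows VitA+ and VitA- stand for the Col1a1+ libraries of that gate.

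Totals ran from 6145748 to 149936344 UMIs (counted RNA molecules) per library, with medians of 9105.5 to 24077 UMIs per cell. Each group held 1 library, so no test between groups was possible, and every interval below is a 95% interval for counting error only. Levels are UMIs per 1000000 UMIs of the library or cell class (CPM), and TMM scaling, an alternative, sets library sizes after leaving out genes of extreme ratio. A gene was called past the fold when the levels differed at least 2-fold. At most 0.749% of the barcodes of the smaller library of any pair were shared. The summed level of the 14 stellate markers was 27868 CPM in VitA+ DEN+WAD and 11031 in VitA- DEN+WAD. In chow liver it was 28414 and 4665, VitA+ first. The portal fibroblast markers went the other way, at 422 and 6181 CPM in DEN+WAD and 229 and 12233 in chow liver. So did the smooth muscle markers, at 1159 and 2516, then 744 and 4684 CPM. The endothelial markers were at 298 and 2010 CPM in DEN+WAD and 618 and 671 in chow liver. Col1a1 RNA was at 1062 CPM in the library labelled VitA-Col1a1- and at 99.4 to 1834 in the Col1a1+ libraries, so no direction is drawn from its label. In a sum over a library, fewer cells of a type and less RNA per cell cannot be told apart, so levels within cell classes are set beside it. These classes come from clusters named by marker lists that left out the 9 genes, and their values are a description.

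Promoters of Lrat and Rarb are shown because the storage enzyme and the receptor gene were the members that differed most between the VitA gates in chow liver in the higher direction. They are RefSeq windows on GRCm38.p6, from 250 bases before to 50 after the start, read 5′ to 3′ along the gene. Capitals mark a retinoic acid response element by its letters, which is a pair of hexamers in the same direction with 5 bases between them. Each hexamer could be the consensus AGGTCA, the related spelling AGTTCA, the spelling GGTTCA that begins the match in Rarb, or a last spelling, GGGTCA. Both strands were searched.
Lrat, chr3:82903925-82904224, minus strand: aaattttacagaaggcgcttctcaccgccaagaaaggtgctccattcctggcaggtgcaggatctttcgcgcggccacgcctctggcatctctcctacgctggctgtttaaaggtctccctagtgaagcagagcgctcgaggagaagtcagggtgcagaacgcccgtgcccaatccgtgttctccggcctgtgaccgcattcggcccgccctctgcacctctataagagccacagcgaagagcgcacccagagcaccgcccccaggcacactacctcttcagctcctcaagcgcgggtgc
Rarb, chr14:16575427-16575726, minus strand: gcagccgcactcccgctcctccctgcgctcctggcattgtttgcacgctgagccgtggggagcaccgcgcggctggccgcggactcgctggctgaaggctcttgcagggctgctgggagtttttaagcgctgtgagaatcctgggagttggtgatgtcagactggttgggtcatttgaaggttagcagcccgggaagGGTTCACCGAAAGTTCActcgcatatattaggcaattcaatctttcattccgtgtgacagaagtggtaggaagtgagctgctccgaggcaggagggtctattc
Among the 8 members with a window in the table, Rarb alone held the motif, from 53 to 37 bases before its start. This window starts the gene at an inner site, within the span of the annotated gene given below. The motif was in 32 of 32851 windows (0.0974%). In a list of 44 other retinoid genes, 33 had windows and Cyp26a1, which encodes a retinoic acid hydroxylase, alone held it. A match of letters is a description and not evidence of binding. No window was in the table for Rdh10.

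Lrat (ENSMUSG00000028003; GRCm38 chromosome 3, 82892579 to 82903973, minus strand) encodes lecithin retinol acyltransferase, which makes the retinyl esters that HSC store. Its level was 1497 CPM in VitA+ DEN+WAD and 611 (604 to 618) in VitA- DEN+WAD. In chow liver it was 1931 CPM in VitA+ and 380 (370 to 390) in VitA-. The library labelled VitA-Col1a1- held 448 CPM (444 to 452). Both VitA+ libraries were thus above all 3 of the others. The VitA+ library exceeded the VitA- library 2.45-fold (2.42 to 2.48) in DEN+WAD liver and 5.09-fold (4.93 to 5.25) in chow liver. Across diets Lrat went opposite ways: DEN+WAD was lower than chow among VitA+ cells (log2 ratio -0.37) and higher among VitA- cells (0.69).

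Within stellate-like cells the gap between the gates was smaller. Lrat was 1599 CPM in stellate-like cells of VitA+ DEN+WAD and 1268 in those of VitA- DEN+WAD (log2 ratio 0.33). In chow liver the stellate-like levels were 2019 and 860 CPM (log2 ratio 1.23), and the level was 949 in the library labelled VitA-Col1a1-. The stellate-like cells of VitA- chow were 2 unlike clusters. One of 27 cells led by Fcna, Colec10 and Hhip had 2096 CPM of Lrat, close to the VitA+ level, and one of 66 cells led by Ephx3, Rgs4 and Nrarp, with Rgs5 and Cspg4 among its leading genes, had 382. A VitA- DEN+WAD cluster of 163 cells that also had Ephx3, Fabp7 and Higd1b among its leading genes (166 CPM) stayed unnamed and is not in the stellate-like class there. Stellate-like cells made up 83.4% of VitA+ and 43.6% of VitA- cells in DEN+WAD liver, against 60.2% and 13.9% in chow liver. Portal fibroblast-like cells had 81.7 CPM in VitA- DEN+WAD, 133 in VitA- chow and 261 in the library labelled VitA-Col1a1-. Stellate-like cells were the highest named class in every library.

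After thinning each cell to 2000 UMIs, 90.4% of VitA+ DEN+WAD cells had an Lrat UMI (97.1% unthinned), against 47.5% of VitA- DEN+WAD cells (70.4% unthinned). The chow libraries gave 90.2% (94.6% unthinned) and 37.6% (72.5% unthinned). As a background, an Lrat UMI was seen in 4.56% of macrophage-like cells (11.0% unthinned) of the library labelled VitA-Col1a1-, at a median of 17558.5 UMIs. In that library as a whole the share was 37.9% (49.6% unthinned), at a median of 9105.5 UMIs. All 5 libraries were above this share, but it comes from 1 library and does not measure the background of the others. Endothelial-like clusters of 220 cells in VitA+ DEN+WAD and 406 cells in VitA- DEN+WAD had 454 and 11.9 CPM of Lrat.

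**Figure D1:**
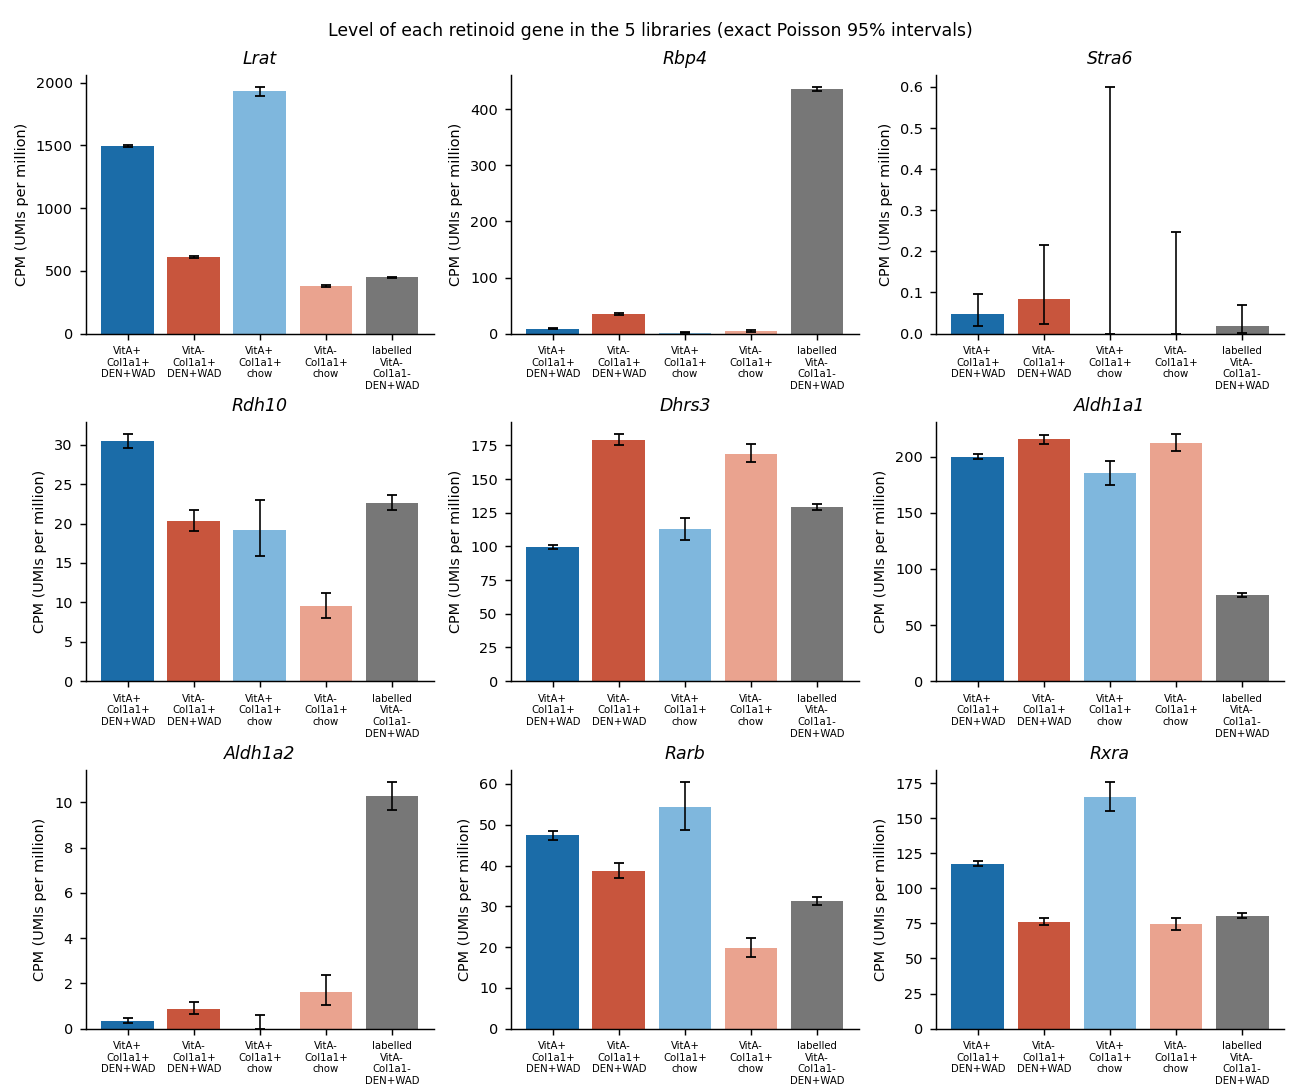
Level of each of the 9 genes (CPM, each panel on its own scale from 0) in the 5 libraries, with exact Poisson 95% intervals. Lrat was 1497 and 1931 CPM in the VitA+ libraries against 380 to 611 in the others, and Rbp4 and Aldh1a2 were highest in the library labelled VitA-Col1a1-.

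Rbp4 (ENSMUSG00000024990; chromosome 19, 38116629 to 38125281, minus strand) encodes the plasma carrier of retinol. Its level was 8.65 CPM in VitA+ DEN+WAD, 34.3 in VitA- DEN+WAD, 1.30 in VitA+ chow, 4.73 in VitA- chow and 436 (432 to 440) in the library labelled VitA-Col1a1-. The last library stood far above the rest, and each VitA+ library was below its VitA- partner. The VitA- level was 3.96-fold (3.68 to 4.27) higher in DEN+WAD liver and 3.64-fold (1.75 to 8.75) higher in chow liver. The lowest of these levels rested on 8 UMIs. The hepatocyte markers moved with it: their summed level was 207 and 691 CPM in the DEN+WAD pair (9 of 9 found in each), 126 and 316 in the chow pair (5 and 7 of 9 found), VitA+ first, and 5878 in the library labelled VitA-Col1a1- (9 of 9 found). Their part in the Rbp4 differences was not tested.

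A few cells carried most Rbp4 UMIs of the VitA+ and VitA- libraries. In VitA+ DEN+WAD, 1 cell held 1089 of 1297 UMIs (84.0%), and 10 cells held 93.3%. Of all UMIs of those 10 cells, 11.9% came from the 9 hepatocyte markers, which took 0.0207% of that library. In VitA- DEN+WAD, 505 of 1633 UMIs were in 1 cell and 85.9% in 10. Without the top cell of each library, the DEN+WAD gate difference was wider, at 1.39 against 23.7 CPM (log2 ratio -4.10). This repeat was chosen after seeing the data.

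By cluster, Rbp4 sat with hepatocyte transcripts and, at a low level, with portal fibroblast-like cells. An unnamed cluster of 60 cells led by Apoa1, Alb and Ahsg, which encode plasma proteins of hepatocytes, held 92.0% of the Rbp4 UMIs of VitA+ DEN+WAD. An unnamed cluster of 115 cells led by Spp1, Alb and Ttr held 88.5% of those of VitA- DEN+WAD. In the library labelled VitA-Col1a1-, hepatocyte-like cells had 6804 CPM, and Rbp4 and Ttr, the transthyretin that carries Rbp4 in plasma, kept close to 1 ratio in most classes: 0.963 Ttr UMIs per Rbp4 UMI in stellate-like cells, 1.02 in endothelial-like, 0.956 in macrophage-like and 0.846 in hepatocyte-like cells. Cholangiocyte-like cells stood apart there, with 1576 Ttr and 170 Rbp4 UMIs. Portal fibroblast-like cells of the VitA- libraries were also apart from this. They had 5.52 Rbp4 UMIs per Ttr UMI in DEN+WAD liver, and 28 Rbp4 UMIs with 0 of Ttr in chow liver. Their Rbp4 level was 11.7 CPM in DEN+WAD and 5.83 CPM in chow liver, against 1.38 and 0 CPM in the stellate-like cells of the same libraries. In DEN+WAD liver it was highest, at 50.2 CPM, in a portal fibroblast-like cluster of 42 cells led by Wif1, Ptn and Ntrk2, in which Alb was at 2.28 CPM.

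**Figure D2:**
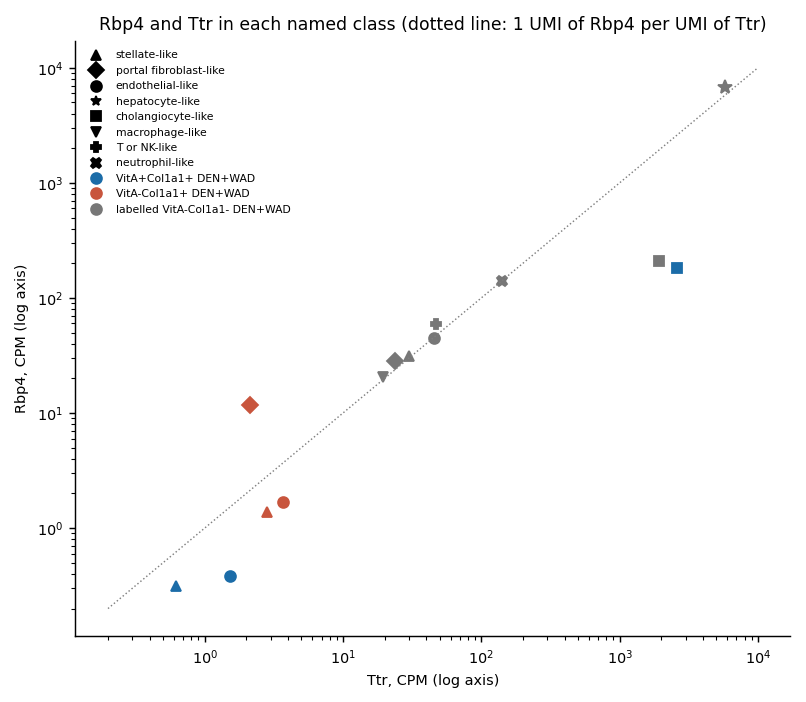
Rbp4 against Ttr (both CPM on log axes) in 14 named cell classes with UMIs of both genes, shaped by class and coloured by library, with a dotted line at 1 UMI of Rbp4 per UMI of Ttr. Classes of the library labelled VitA-Col1a1- other than cholangiocyte-like cells lie near the line, from 20.5 CPM of Rbp4 in macrophage-like to 6804 in hepatocyte-like cells, and portal fibroblast-like cells of VitA- DEN+WAD lie above it.

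Stra6 (ENSMUSG00000032327; chromosome 9, 58063788 to 58153996, plus strand) encodes a membrane receptor that takes up retinol from Rbp4. It had 7 UMIs in VitA+ DEN+WAD, 4 in VitA- DEN+WAD and 2 in the library labelled VitA-Col1a1-. Neither chow library had a UMI. A limit of 3 UMIs gives 0.488 CPM in VitA+ and 0.20 CPM in VitA-, and the upper ends of the exact Poisson 95% intervals are 0.600 and 0.246 CPM. At these counts a difference between libraries was not detectable.

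Rdh10 (ENSMUSG00000025921; chromosome 1, 16105774 to 16133734, plus strand) encodes an enzyme that oxidises retinol to retinaldehyde. Its level was 30.4 CPM (29.5 to 31.3) in VitA+ DEN+WAD, 20.3 (19.1 to 21.7) in VitA- DEN+WAD, 19.2 (15.9 to 23.0) in VitA+ chow, 9.54 (8.04 to 11.2) in VitA- chow and 22.6 in the library labelled VitA-Col1a1-. VitA+ cells were higher than VitA- cells in each diet, and DEN+WAD cells were higher than chow cells in each gate. The gate difference was 1.5-fold (1.39 to 1.60) in DEN+WAD liver and 2.01-fold (1.56 to 2.59) in chow liver. The diet difference was 1.58-fold (1.32 to 1.92) among VitA+ cells and 2.13-fold (1.79 to 2.56) among VitA- cells. The chow gate value lay at the 2-fold limit, and without the top cell of each library its log2 ratio was 0.97.

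Stellate-like cells were not alike in Rdh10. In VitA+ DEN+WAD, a stellate-like cluster of 381 cells led by the chemokine genes Cxcl10, Cxcl2, Ccl2, Cxcl5 and Ccl7 had 104 CPM (96.5 to 113), against 20.8 to 27.1 in 7 other stellate-like clusters and 37.7 (26.2 to 52.4) in the last, of 29 cells led by cell division genes such as Top2a and Prc1. A stellate-like cluster of 90 cells of VitA- DEN+WAD, led by Ccl5, Ccl2, Ccl7, Cxcl10 and Cxcl2, had 92.5 CPM (78.4 to 108). An unnamed cluster of 676 cells of VitA+ DEN+WAD, with Timp1, Col15a1, Col1a1 and Acta2 among its leading genes, had 54.5 CPM. Stellate-like cells as a class had 26.8 and 24.3 CPM in the VitA+ and VitA- DEN+WAD libraries, 21.8 in VitA+ chow and 42.9 in the library labelled VitA-Col1a1-. Those of VitA- chow had 4.56 CPM, from 8 UMIs.

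Dhrs3 (ENSMUSG00000066026; chromosome 4, 144892827 to 144928209, plus strand) encodes an enzyme of the reverse step, which returns retinaldehyde to retinol. Its level was 99.4 CPM in VitA+ DEN+WAD, 179 in VitA- DEN+WAD, 113 in VitA+ chow, 169 in VitA- chow and 129 in the library labelled VitA-Col1a1-. Dhrs3 was lower in VitA+ than in VitA- cells in each diet, opposite to Rdh10. The VitA- level was 1.81-fold (1.76 to 1.85) higher in DEN+WAD and 1.5-fold (1.38 to 1.63) higher in chow liver. Endothelial-like cells had the most Dhrs3 of these classes, at 302 CPM in VitA+ DEN+WAD, 383 in VitA- DEN+WAD, 392 in VitA- chow and 241 in the library labelled VitA-Col1a1-. Stellate-like cells had 91.6, 146, 107 and 109 CPM in the same libraries. Within stellate-like cells alone the DEN+WAD gate difference was a log2 ratio of -0.68, and the chow one was -0.24.

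Aldh1a1 (ENSMUSG00000053279; chromosome 19, 20492715 to 20643465, plus strand) and Aldh1a2 (ENSMUSG00000013584; chromosome 9, 71215789 to 71296243, plus strand) encode enzymes that oxidise retinaldehyde to retinoic acid. Aldh1a1 was at 199.9 CPM in VitA+ DEN+WAD, 215 in VitA- DEN+WAD, 185 in VitA+ chow, 212 in VitA- chow and 77.0 in the library labelled VitA-Col1a1-. The Col1a1+ libraries were close together, with gate log2 ratios of -0.11 in DEN+WAD and -0.20 in chow liver. The former took the other sign, 0.10, under TMM scaling. Portal fibroblast-like cells had 339 CPM in VitA- DEN+WAD and 204 in VitA- chow, and stellate-like cells had 210 and 248 CPM there. Endothelial-like cells of these 2 libraries had 4.47 CPM and 0 UMIs. Aldh1a1 shares 3.06% of its 50-base stretches with its near copy Aldh1a7, so some of its reads may not have been assigned.

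Aldh1a2 was scarce in the Col1a1+ libraries: 54 UMIs (0.360 CPM) in VitA+ DEN+WAD, 42 (0.882) in VitA- DEN+WAD, 0 in VitA+ chow and 24 (1.60) in VitA- chow. The 42 UMIs came from 8 cells, and the 24 UMIs from 3. The library labelled VitA-Col1a1- was higher, with 1086 UMIs (10.3 CPM, 9.68 to 10.9) in 360 cells. A stellate-like cluster of 870 cells of that library, led by Serpine2, Fbn2, Col15a1, Bdnf, Alcam and Timp1, held 57.6% of them at 51.7 CPM. After thinning, 2.74% of its stellate-like cells had an Aldh1a2 UMI (7.63% unthinned, median 9937 UMIs), against 0.0417% of endothelial-like cells (0.0803% unthinned, median 7872.5 UMIs). In VitA- DEN+WAD, 81.0% of the UMIs lay in an unnamed cluster of 197 cells with Alcam, Cd74, Wt1, Bdnf and Col15a1 among its leading genes. In VitA- chow, all of them lay in an unnamed cluster of 42 cells with Spp1, Alb, Wt1, Krt18, Ttr and Krt19 among its leading genes. Wt1 is a mesothelial marker, but neither cluster had enough mesothelial markers for that name under the naming rule. By that rule, 14 of 14 stellate and 8 of 11 portal fibroblast markers were found in the VitA- DEN+WAD cluster. In the VitA- chow cluster, 11 of 14 and 9 of 11 were found. The cell type behind these Aldh1a2 UMIs was not tested.

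**Figure D3:**
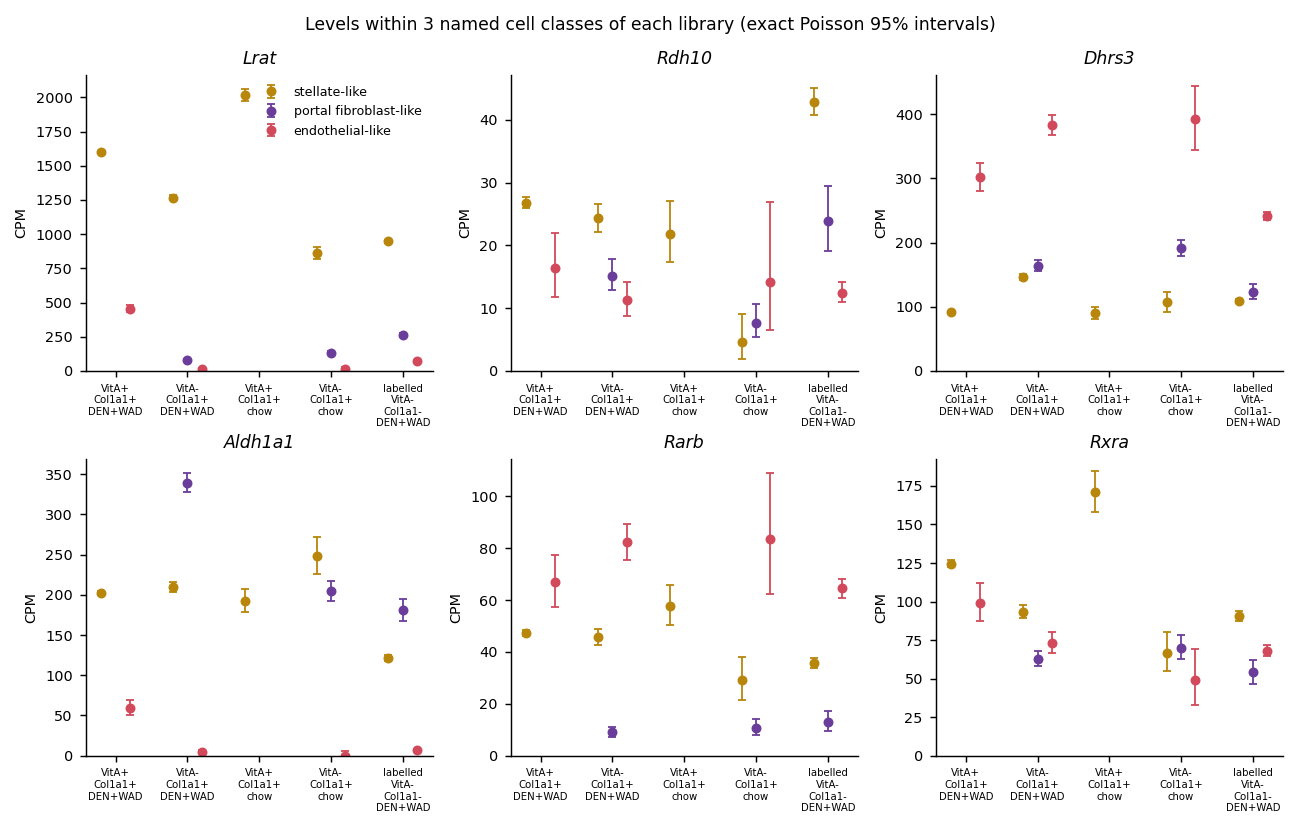
Levels (CPM, each panel from 0) of 6 members in stellate-like, portal fibroblast-like and endothelial-like cells of each library, with exact Poisson 95% intervals. Lrat is highest in stellate-like cells, Dhrs3 in endothelial-like cells, and Rarb is lowest in portal fibroblast-like cells, at 8.95 to 12.9 CPM.

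Rarb (ENSMUSG00000017491; chromosome 14, 16430839 to 16819156, minus strand) encodes a retinoic acid receptor and is itself a known target of retinoic acid. Its level was 47.4 CPM (46.3 to 48.5) in VitA+ DEN+WAD, 38.7 (37.0 to 40.5) in VitA- DEN+WAD, 54.3 (48.7 to 60.5) in VitA+ chow, 19.9 (17.7 to 22.3) in VitA- chow and 31.3 in the library labelled VitA-Col1a1-. VitA+ cells were higher in each diet, and VitA- chow was lowest. The gate difference was 1.22-fold (1.16 to 1.29) in DEN+WAD liver and 2.74-fold (2.33 to 3.21) in chow liver. Across diets, the log2 ratio of DEN+WAD over chow was -0.20 among VitA+ cells (-0.01 under TMM scaling) and 0.96 among VitA- cells. Stellate-like cells had 47.2, 45.6, 57.6 and 29.1 CPM in the VitA+ DEN+WAD, VitA- DEN+WAD, VitA+ chow and VitA- chow libraries. Within them the DEN+WAD gate difference was 0.05 on the log2 scale, and the chow one was 0.99. In the 2 stellate-like clusters of VitA- chow, Rarb was at 49.0 CPM (31.4 to 73.0) in the cluster of 27 cells and 21.4 (14.1 to 31.1) in that of 66 cells.

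Rxra (ENSMUSG00000015846; chromosome 2, 27676440 to 27762957, plus strand) encodes the partner receptor of RARs and of several other nuclear receptors. Its level was 117 CPM in VitA+ DEN+WAD, 76.2 in VitA- DEN+WAD, 165 in VitA+ chow, 74.3 in VitA- chow and 80.5 in the library labelled VitA-Col1a1-. The VitA+ libraries were the highest in each diet, with gate differences of 1.54-fold (1.49 to 1.60) and 2.22-fold (2.04 to 2.42). Stellate-like cells had 125 and 93.4 CPM in DEN+WAD liver and 171 and 66.7 in chow liver, VitA+ first. The VitA- chow value joins 127 CPM (97.1 to 162) in the cluster of 27 cells and 43.5 (32.8 to 56.6) in that of 66 cells.

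Counted over the members, the gate split them more in chow than in DEN+WAD liver, and this difference was not tested. In DEN+WAD liver 8 members had enough UMIs, and Lrat was higher and Rbp4 and Aldh1a2 lower past the fold in VitA+ cells. Aldh1a2 rested on 54 and 42 UMIs, and without the top cell of each library it was at -0.99, short of the fold. Of all 14489 genes with enough UMIs, 2.17% were higher and 17.9% lower. In chow liver, of 7 members, Lrat, Rdh10, Rarb and Rxra were higher and Rbp4 lower, against 5.96% and 13.0% of 11861 genes. The members' median log2 ratio was 0.09 in DEN+WAD and 1.01 in chow liver, beside -0.14 and -0.08 over all genes. Kept to mesenchymal-like cells, a wider class that joins clusters of stellate, portal fibroblast and smooth muscle markers, some of them unnamed at the finer level, 1 of 7 members in DEN+WAD liver (Rbp4) was past the fold, lower (background 2.75% higher and 12.0% lower). With coarser clusters (Leiden resolution 0.5 in place of 1) this count was 3, with Lrat (log2 ratio 1.04) and Rdh10 (1.11) higher beside Rbp4. No share over all genes was made at this resolution, here or below. In chow liver Lrat, Rdh10, Rarb and Rxra, 4 of 6, were higher there (background 6.95% higher and 12.9% lower).

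Between diets, among VitA+ cells Rbp4 alone of 7 was past the fold, 6.65-fold (3.36 to 15.4) higher in DEN+WAD. Without the top cell of each library 208 UMIs against 2 were left, too few to count it. All genes gave 2.11% higher and 4.93% lower. In mesenchymal-like cells 0 of 6 members were past it, beside 2.09% and 3.28% of all genes. Among VitA- cells Rbp4, 7.24-fold (5.71 to 9.32) higher in DEN+WAD, and Rdh10 were past the fold of 8 members. Without the 5% of cells with the most UMIs Rbp4 went from a log2 ratio of 2.86 to 0.84 and was no longer past it. The hepatocyte markers of these libraries summed to 316 CPM with chow and 691 with DEN+WAD, and their part in this was not tested. All genes gave 6.50% higher and 7.43% lower. In mesenchymal-like cells of this gate Lrat (log2 ratio 1.02) and Rdh10 (1.17) were higher, 2 of 7, beside 4.0% and 7.46% of all genes. Rbp4 there had a log2 ratio of 0.61. At resolution 0.5, Lrat (1.08) and Aldh1a2 (-2.71) were past the fold and Rdh10, at 0.60, was not.

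**Figure D4:**
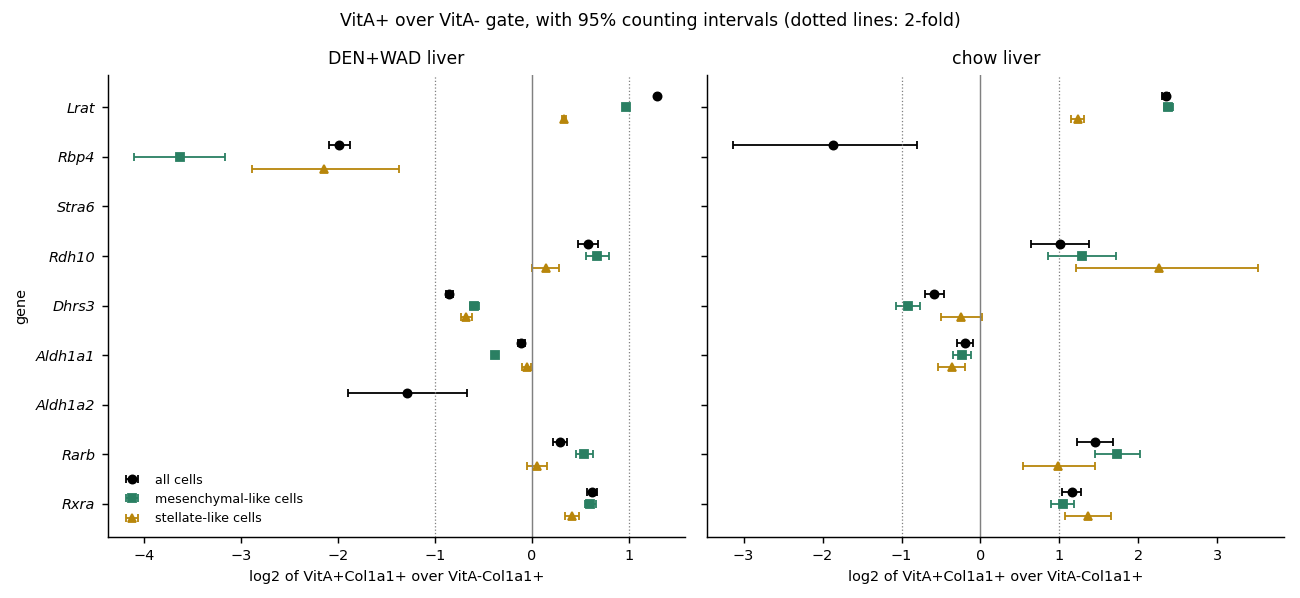
Log2 ratio of VitA+ over VitA- for each member in DEN+WAD liver (left) and chow liver (right), over all cells, mesenchymal-like cells and stellate-like cells, with 95% counting intervals and dotted lines at 2-fold. Members with too few UMIs have no point. Lrat goes from 1.29 over all cells to 0.33 in stellate-like cells of DEN+WAD liver, and Rarb and Rxra lie further to the right in chow than in DEN+WAD liver.

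Cells of each library were also divided by their own Lrat UMIs per 10000: 0, under 5, 5 to 20 and over 20. Lrat chose these cells, so 8 members were counted. The groups differed in cell type: in VitA+ DEN+WAD, 49.0% of the 306 cells at 0 were endothelial-like and 6.21% mesenchymal-like, and 99.0% of the 2227 cells over 20 were mesenchymal-like. They also differed in depth there, with medians of 6426.5 and 13309 UMIs, and 36.9% and 0.718% of cells under 2000 UMIs. The parts of cell type and depth in the values over all cells were not tested. Values of mesenchymal-like cells are given after them. From the cells at 0 to those over 20, Rbp4 went from 75.7 to 0.354 CPM in VitA+ DEN+WAD, from 94.7 to 1.41 in VitA- DEN+WAD and from 794 to 40.2 in the library labelled VitA-Col1a1-. Dhrs3 went from 303 to 106, from 253 to 165 and from 139 to 166 CPM in the same libraries. Aldh1a1 went from 56.7 to 208, from 172 to 214 and from 29.5 to 132 CPM. Over all cells, Rbp4 was thus lower in Lrat-rich cells in all 3, while Dhrs3 took no common direction. In mesenchymal-like cells the log2 ratio of Rbp4 was -3.33 in VitA- DEN+WAD and -0.63 in the library labelled VitA-Col1a1-. VitA+ DEN+WAD had too few Rbp4 UMIs for this. Dhrs3 in mesenchymal-like cells was at 0.44, 0.11 and 0.76 in the 3 libraries, and at -0.60 in VitA- chow.

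By count, in VitA+ DEN+WAD 1 of 6 members was higher past the fold in the cells over 20 and 2 were lower, beside 9.23% and 19.4% of all genes. In VitA- DEN+WAD 0 of 6 were higher and 1 lower, beside 5.16% and 17.1%. In VitA+ chow 1 of 4 was higher and 1 lower, beside 14.8% and 23.0%, with 14 cells at 0. In VitA- chow 1 of 3 was higher (Rxra) and 1 lower (Dhrs3), beside 5.79% and 10.1%, with 19 cells over 20. In the library labelled VitA-Col1a1-, Rdh10, Aldh1a1 and Rarb, 3 of 7, were higher and Rbp4 lower, beside 12.8% and 19.4%. In its mesenchymal-like cells Rdh10 (0.19), Aldh1a1 (0.11) and Rbp4 (-0.63) were short of the fold. Rarb (1.28), Rxra (1.25) and Aldh1a2 (-3.01) were past it there, and no share over all genes was made for these cells.

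Within mesenchymal-like cells, the receptor genes followed Lrat. Rarb over the 4 groups was 10.2, 41.3, 46.1 and 52.0 CPM in VitA+ DEN+WAD, 11.7, 22.4, 43.2 and 55.9 in VitA- DEN+WAD, 8.29, 14.8, 27.1 and 31.9 in VitA- chow and, for the library labelled VitA-Col1a1-, 20.9, 26.0, 35.3 and 50.8. Each step was upward in all 4 libraries, though some neighbouring intervals overlapped, and the first group of VitA+ DEN+WAD held 19 cells and the last of VitA- chow held 15. In the library labelled VitA-Col1a1-, the first group was shallow, at a median of 1324 UMIs, against 13294, 11220 and 8608 in the next groups. The part of depth was not tested. Portal fibroblast-like cells, which are in this class and have little Lrat, had 8.95 to 12.9 CPM of Rarb. Their part in the gradient was not tested. Rxra was 54.5, 73.5, 117 and 131 CPM in VitA+ DEN+WAD, 50.4, 62.2, 94.1 and 108 in VitA- DEN+WAD and, for the library labelled VitA-Col1a1-, 50.0, 62.2, 95.3 and 119. It went up at each step in these 3 and reached 114 and then 83.8 in the last groups of VitA- chow. VitA+ chow is left out here, with 3 and 2 cells in its lower groups.

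Enzymes did not share one pattern in mesenchymal-like cells. Aldh1a1 went from 336 CPM at 0 to 214 over 20 in VitA- DEN+WAD and from 153 to 209 in VitA+ DEN+WAD. Rdh10 went from 78.4 to 25.2 CPM in VitA+ DEN+WAD and was 14.0 and 16.5 at these ends in VitA- DEN+WAD. Aldh1a2 in the library labelled VitA-Col1a1- was 26.3, 30.5, 14.9 and 3.26 CPM. In VitA+ DEN+WAD Aldh1a2 was at 2.76 CPM (1.63 to 4.36) in the cells under 5 and 0.097 over 20, from 18 and 3 UMIs. Rdh10 in the library labelled VitA-Col1a1- was 30.4, 45.1 (41.9 to 48.4), 31.9 and 34.8 CPM (29.0 to 41.4) over the 4 groups.

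**Figure D5:**
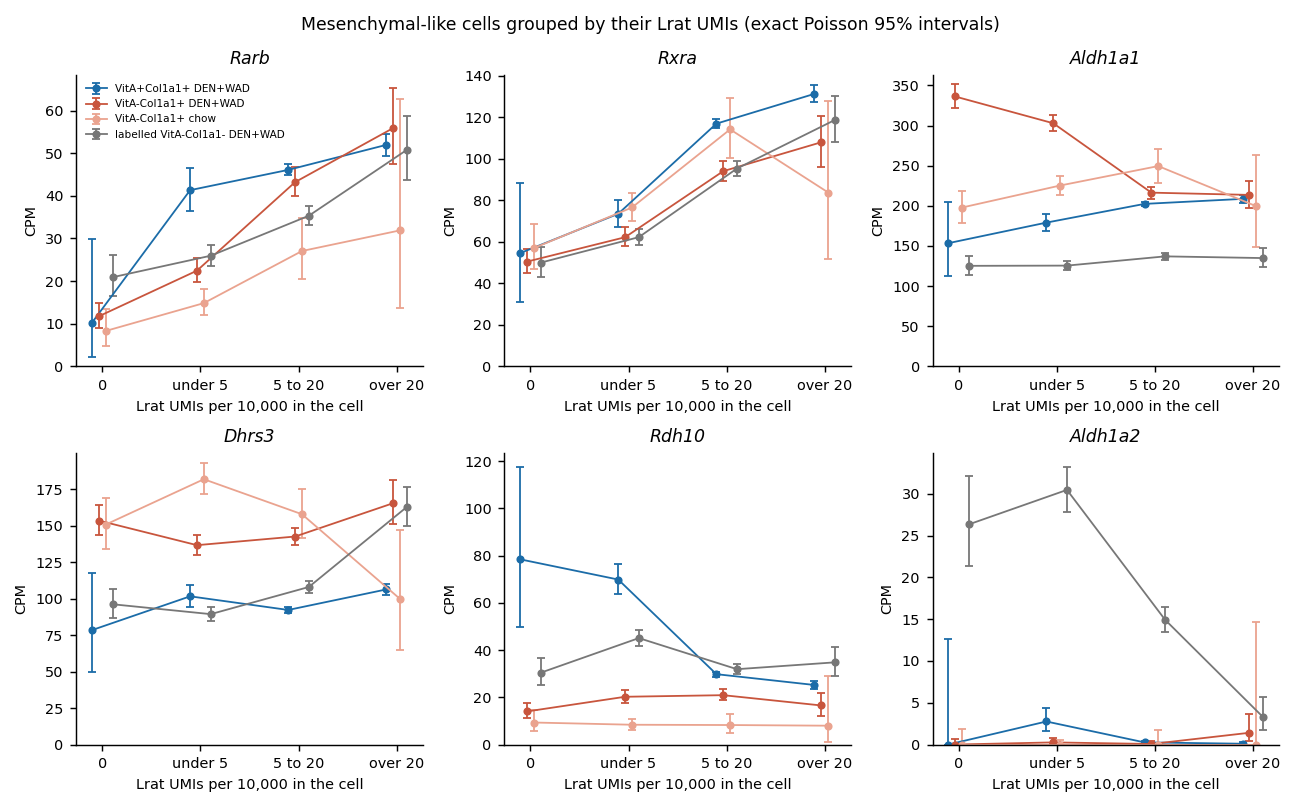
Levels (CPM) of 6 members in mesenchymal-like cells of 4 libraries divided by the cell's Lrat UMIs per 10000 (0, under 5, 5 to 20, over 20), with exact Poisson 95% intervals. Rarb goes up at each step in every library drawn, from between 8.29 and 20.9 CPM to between 31.9 and 55.9 CPM.

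Between VitA+ and VitA- cells of the same Lrat group, the gate difference of Rxra in DEN+WAD liver was smaller than over all cells (log2 ratio 0.62), at 0.16, 0.15, 0.32 and 0.28 from the cells at 0 upward. Rarb, at 0.29 over all cells, was at 0.39 and 0.57 in the cells at 0 and under 5, and its intervals in the upper groups reached across 0 (-0.02 to 0.21 and -0.34 to 0.14). In cells with 5 to 20 Lrat UMIs per 10000 the log2 ratio was 0.10 for Rarb, 0.31 for Rdh10 and -0.07 for Aldh1a1, and Dhrs3 was at -0.66. Of 6 members Rbp4 alone was past the fold, lower in VitA+ cells (-2.06), beside 0.915% of all genes higher and 6.40% lower. In cells over 20, 0 of 5 members were past it, beside 1.01% and 2.12%, with Dhrs3 at -0.64 and Rdh10 at 0.61. In cells under 5, 3 of 7 members were higher and 0 lower, beside 4.62% and 6.85% of all genes. In cells at 0, 0 of 6 were higher and 1 lower, beside 2.50% and 7.95%. Rdh10 was at 1.58 (1.38 to 1.78) in the cells under 5, where VitA+ cells had 65.8 and VitA- cells 22.0 CPM. Over cells of all types, Dhrs3 thus had a similar gate difference in the 3 groups with Lrat UMIs (-0.57 under 5). It had the other sign, 0.26, in the cells at 0. Among mesenchymal-like cells at 0, Dhrs3 was at 78.4 CPM (49.7 to 118) in VitA+ (19 cells) and 153 (143 to 164) in VitA-. Rarb in these cells was at 10.2 and 11.7 CPM. The part of cell type in these ratios was not tested.

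Beside the members, a wider list of 44 retinoid genes was counted in each comparison. In DEN+WAD liver 0 of 36 were higher past the fold in VitA+ cells and 13 were lower, a median log2 ratio of -0.28, beside 2.17% and 17.9% of all genes and their median of -0.14. Among the 13 were Cyp26b1 (8.74 against 81.6 CPM, log2 ratio -3.22), which encodes an enzyme that breaks down retinoic acid, the lipid carrier gene Fabp5 (-3.41) and Ttr (-3.19). The others were Rbp7, Stra6l, Lipe, Ces1d, Rdh7, Rdh12, Adh1, Aldh1a7, Rxrg and Adh7, from -1.08 for Lipe to -4.36 for Rdh7, and Adh7 had 0 UMIs against 35. Cyp26b1 lay mostly in endothelial-like cells, which held 1262 of its 1310 UMIs in VitA+ and 3587 of its 3886 in VitA- DEN+WAD, at 479 and 553 CPM, and mesenchymal-like cells had 0.320 and 4.52 CPM. The summed endothelial markers were at 298 and 2010 CPM in these libraries. In chow liver 4 of 26 were higher and 5 lower, beside 5.96% and 13.0% of all genes. Among the higher were Bco1 (249 against 19.7 CPM), which encodes a carotenoid-cleaving enzyme, Aldh1a3 (log2 ratio 3.08) and Scarb1 (1.65). Fabp5 (-2.63), Lpl (-1.75), Rdh5 (-1.34), Dgat1 (-1.25) and Adh1 (0 UMIs against 69) were lower. Among all cells Alb, a marker of free or mixed-in hepatocyte RNA, was at 59.9 and 174 CPM in the DEN+WAD pair, VitA+ first, and its part in the lower genes was not tested.

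Between diets, 0 of 26 genes of the wider list were higher and 3 lower in VitA+ DEN+WAD cells: Ces1d (-2.72), Cyp26b1 (-1.61) and Aldh8a1 (-1.02). In VitA- cells 7 of 31 were higher and 2 lower. Ttr (3.34), Bco1 (2.25), Aldh8a1 (2.14), Aldh1a3 (2.14), Cyp26b1 (1.35), Scarb1 (1.16) and Rdh7 (254 UMIs against 0) were higher, and Crabp2 (-1.33) and Ces1d (-1.17) lower. Beside these counts, 2.11% of all genes were higher and 4.93% lower among VitA+ cells, and 6.50% and 7.43% among VitA- cells. Cyp26b1 thus took opposite signs in the VitA gates, a difference that was not tested. The summed endothelial markers took the same signs, with 618 CPM against 298 among VitA+ cells and 671 against 2010 among VitA- cells, chow first. Their part in the Cyp26b1 values was not tested.

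Genes most like 3 of the members were sought over 15 sums of UMIs, each 1 named class of 1 library, among 6705 genes. The points share libraries and depth. By Pearson's r of log2(CPM + 1), Lrat was nearest to Tln2 (0.98), Ngfr (0.98) and Pth1r (0.98), Rbp4 to Ahsg (0.99), Apoh (0.97) and Fgg (0.96), and Rdh10 to Tax1bp1 (0.89), Clca3a1 (0.76) and Ppid (0.74). Ngfr is one of the 14 stellate markers. Lrat with Rarb gave 0.44 and Lrat with Rxra 0.40 over these sums.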

How the data were processed

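Per the labels, the authors sorted 5 fractions of mouse liver and made 3' droplet libraries with a 10x Genomics kit at a target of 10000 cells each; the labels name more than one kit version. The authors aligned reads to mm10 and deposited raw UMI counts per gene and barcode, with no normalization. The file headers name Cell Ranger 3.1.0 for the Col1a1+ libraries and 6.1.2 for the library labelled VitA-Col1a1-, so software version and label cannot be told apart there. The lowest total of any deposited barcode was 500 UMIs, and every barcode was used as a cell.

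UMI counts were summed over cells and scaled to CPM with Python 3.11.15, numpy 2.4.6, scipy 1.17.1 and pandas 2.3.3. Levels carry exact Poisson intervals, ratios conditional binomial intervals and shares Clopper-Pearson intervals at 95%. With 1 library per group no p-value was made. A gene entered a comparison if its mean CPM gave at least 10 UMIs in the smaller library, and 3 UMIs served as the floor for a count of 0. For shares, cells were thinned to 2000 UMIs, leaving out 4 to 1439 shallower cells per library. Each library was clustered with scanpy 1.11.5 (2000 variable genes without the retinoid genes and Col1a1, 30 components, 15 neighbours, Leiden resolution 1, seed 7). Clusters were named from 16 marker lists: a list needed 3 genes found in 25% of cells, and a cluster whose 10 leading genes held more genes of another list stayed unnamed. The naming rule came from earlier work on these data. No doublet caller was run, and a repeat without the 5% of cells with the most UMIs stands in for it. TMM factors came from edgeR 4.0.16 (R 4.3.3), and plots from matplotlib 3.10.9. The scripts were tested on simulated data. Of the 31053 identifiers, 30934 (99.6%) were in GENCODE M21 (GRCm38). Coordinates are 1-based.

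The named genes are the 9 members, the genes of the wider list past the fold (1 of them is not reported here), the 3 genes most like each of Lrat, Rbp4 and Rdh10, and Alb, Ttr and Apoa1 as markers of free RNA. The members and lists were chosen with earlier results of these data known.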

Additional observations from a re-analysis of the deposited data

Results flagged for a closer look

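Between diets, 3 members went opposite ways in the VitA gates, and these differences between gates were not tested. The log2 ratio of DEN+WAD over chow was -0.37 in VitA+ and 0.69 in VitA- cells for Lrat, -0.18 and 0.09 for Dhrs3, and -0.20 and 0.96 for Rarb. In mesenchymal-like cells alone Lrat was at -0.39 and 1.02 and Rarb at -0.22 and 0.96, while Dhrs3 took the other signs, 0.09 and -0.23. In stellate-like cells alone the VitA- values were 0.56 for Lrat and 0.65 for Rarb. Stellate-like cells were 43.6% of VitA- DEN+WAD and 13.9% of VitA- chow cells, and the part of this mix was not tested. Under TMM scaling Dhrs3 was at 0.01 among VitA+ cells.

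In the library labelled VitA-Col1a1-, which enters no ratio between gates or diets, Rbp4 was at 436 CPM against at most 4.73 CPM in the chow libraries. Aldh1a2 was at 10.3 CPM there against at most 1.60 CPM in the chow libraries. That library has its own version of the counting software, which cannot be told apart from its label.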

How the results depend on the processing

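Counts of members past the fold depended on which cells entered. In stellate-like cells, all genes gave 1.55% higher and 6.19% lower between gates in DEN+WAD liver (7 members counted). In chow liver they gave 5.87% and 9.23% (6 counted). Between diets they gave 1.63% and 3.02% among VitA+ cells and 4.42% and 8.51% among VitA- cells (6 counted in each). Mesenchymal-like shares between gates and diets at resolution 1 are given above. No share over all genes was made for the other repeats. Between gates in DEN+WAD liver, 3 members became 1 in mesenchymal-like cells (but 3 at clustering resolution 0.5, with Lrat and Rdh10 past the fold in place of Aldh1a2) and 1 in stellate-like cells, and 5 at a fold of 1.5. Between gates in chow liver, 5 became 3 in stellate-like cells. Between diets among VitA+ cells, 1 became 0 without the 5% of cells with the most UMIs, in mesenchymal-like cells (at either clustering resolution), in stellate-like cells, and without the top cell of each gene, a repeat chosen after seeing the data, and 2 at a fold of 1.5. Among VitA- cells, 2 became 1 without the 5% of cells with the most UMIs (Rbp4 at 0.84), 1 in stellate-like cells and 5 at a fold of 1.5. Between Lrat groups, the count in VitA- DEN+WAD went from 1 to 3 in mesenchymal-like cells and 3 at a fold of 1.5. That in VitA+ chow went from 2 to 1 after thinning to 5000 UMIs. That in VitA- chow went from 2 to 1 after thinning, 0 in mesenchymal-like cells and 0 with the cells under 5 as the lower group. That in the library labelled VitA-Col1a1- went from 4 to 2 after thinning and 2 with the cells under 5. In VitA+ chow, too few UMIs were left to count members in mesenchymal-like cells or against cells under 5. Of all such counts, 38 stayed within 1.5 times the reported one and 21 did not.

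Rbp4 between diets among VitA- cells reversed to -0.11 in mesenchymal-like cells clustered at resolution 0.5, and Dhrs3 between Lrat groups of VitA+ DEN+WAD reversed to 0.44 in mesenchymal-like cells. The cause was not tested. TMM scaling moved the median of all genes by 0.20 between gates in DEN+WAD liver, 0.09 in chow liver, 0.19 between diets among VitA+ and 0.08 among VitA- cells, and every member's ratio moved with it. No paired analysis was possible because each group held 1 library. Depth limits Stra6 everywhere, Aldh1a2 in the Col1a1+ libraries, and Rbp4 and Rdh10 in the chow libraries.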
